A study of Mus musculus with 8 samples.

Results

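The subject here is the response of mouse embryonic stem cells (ESCs) to depletion of Hira, read from the 2 Hira_KD and the 2 Control libraries of an RNA-seq series of 8. Its members are the 19035 genes, of 55418 in the deposited count table, that had enough reads to be tested between these 4 libraries, with no choice by outcome. All cells were E14 ESCs, labelled with the strain name 12910la, grown without feeder cells on 0.2% gelatin in medium with 15% serum and 10 ng/ml LIF. By the labels, the cells received 1000 ng of a pSuper puro plasmid and then, from 24 h on, 1 µg/ml puromycin for 3 days. The labels give this for controls and depleted cells alike. They also give it for the 2 Ubn1_KD and the 2 Ubn2_KD libraries, from cells depleted of Ubn1 or Ubn2, used here for comparison. The Hira_KD plasmid carried an shRNA against Hira, and which hairpin it was is not given for these libraries in the sources used here. Control cells bear the genotype label wild type, and the study's RNA-seq methods also name wild-type ESCs. Its knockdown methods name an shRNA against luciferase as the control. Which control was sequenced is not settled by these sources. If the controls were not transfected, effects of transfection and selection cannot be told apart from those of Hira depletion. The comparison is thus a transient knockdown in 1 cell line, and whether the libraries of a group came from separate transfections is not given in the sources used here.

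HIRA is the histone chaperone that places the histone variant H3.3 into chromatin outside DNA replication, at active genes, regulatory elements and some repeats. It works in a complex with ubinuclein (UBN1 or UBN2) and CABIN1, and receives H3.3 from ASF1A. In ESCs, H3.3 is known both from transcribed genes and from the promoters of silent developmental genes. The comparison therefore asks which genes lose or gain RNA when the chaperone is short.

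Total counts on genes were 21174666 and 32706053 in the control libraries and 31175762 and 20380337 in the Hira_KD libraries. Levels are given in CPM, the count of a gene scaled to a common library size, here with the TMM method of edgeR. In a library, 3 counts correspond to between 0.0917 and 0.147 CPM, and values near that floor carry mostly counting error. Replicates differed by more than counting error, since the chi-square statistic divided by its degrees of freedom was 5.87 for the controls and 7.82 for Hira_KD. A gene was called when edgeR's quasi-likelihood test gave it an adjusted p (Benjamini-Hochberg) under 0.05 and its fold change exceeded 1.5. With 2 libraries against 2, an exact permutation test of 1 gene cannot give a two-sided p under 0.333, so all p-values come from the fit across genes and measure only the spread between these libraries.

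Hira itself had 90.9 and 98.9 CPM in the control libraries and 10.1 and 10.4 CPM in the Hira_KD libraries, which is -3.21 ± 0.10 on the log2 scale (fold change ± its standard error, as in all values below) at an adjusted p = 5.57e-15. Both depleted libraries lay far below both controls. Gm28539, a gene model that overlaps Hira on the same strand of chromosome 16 and can share its reads, moved with it (-2.75 on the log2 scale). Among the partners, Ubn1 had a log2 fold change of 0.47 (adjusted p = 0.000464), Asf1a of 0.43 (adjusted p = 0.00245), Ubn2 of 0.26 (adjusted p = 0.0231) and Cabin1 of -0.06 (adjusted p = 0.602). None of these partners passed the fold threshold. Of the 16 members of a list of H3 chaperones and H3.3 supply, Hira and Chaf1b were lower and 0 were higher by edgeR. Chaf1b, a subunit of the replication-coupled chaperone CAF-1, had 84.1 and 82.4 CPM in control and 51.98 and 55.3 CPM after depletion (-0.63 ± 0.08).

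The defining genes of ESCs were present in every library. Pou5f1, the gene of the factor OCT4, had 1188 and 1272 CPM in control and 948 and 1036 CPM after depletion (-0.31 ± 0.08). Sox2 had 357 and 399.6 against 419.6 and 447 CPM and Nanog 480.2 and 429.6 against 602 and 526 CPM. All 3 stayed within 1.5-fold, although the depleted libraries lay below the controls for Pou5f1 and above them for Sox2 and Nanog. Such separation of the groups held for 67.2% of all genes tested. Of 33 pluripotency genes, Nr0b1 and Prdm14 were higher, while Tcl1, Tet1 and Fgf4 were lower. Fgf4, the autocrine signal that primes ESCs for differentiation, had 239.8 and 242 CPM in control and 161 and 157 CPM after depletion. Scaled by total counts, 0 of the 33 were lower by edgeR. These calls lay close to the fold threshold. Without Control replicate 1, neither Nr0b1 nor Prdm14 was called and 5 of the 33 were lower. Nr0b1 was also under the threshold without Hira_KD replicate 2, Fgf4 and Tcl1 without Hira_KD replicate 2, and Tet1 without Control replicate 2 or without Hira_KD replicate 1.

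Of the genes tested, 2050 were higher (10.8%) and 1027 were lower (5.40%), or 16.2% in either direction. These shares are the background against which each group of genes below is read. Of all calls 66.6% were higher, the background for lists said below to have mostly higher calls. The 2 groups did not overlap for 67.2% of the genes tested and for 3073 of the 3077 called. Higher genes changed by more, with a median log2 fold change of 1.09 among them against -0.80 among the lower genes. Over 2-fold, 1170 genes were higher and 271 lower, and over 8-fold 64 were higher and 7 lower. With total counts in place of TMM, the median of all genes moved up by 0.13 on the log2 scale, 2714 genes were higher and 576 lower, and the share of calls that were higher went from 66.6% to 82.5%. Among the genes named, Chaf1b, Fgf4, Tcl1, Tet1, Hspe1, Hmox1, Sdha, mt-Nd5, P2rx3, Xiap, Uhrf1, Zfp57 and Pkm were lower on both scales but under the fold threshold with total counts. Changes below are relative to the TMM scale. In bulk RNA, fewer cells with a transcript and less of it per cell cannot be told apart.

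Higher calls were concentrated at low levels and lower calls spread to high levels. Among genes with a mean of 1 to 10 CPM over the 4 libraries, 18.7% were higher and 6.67% lower, and under 1 CPM 12.8% were higher and 2.63% lower. From 10 to 100 CPM the shares were 6.94% and 5.48%. At 100 CPM or more the order turned, with 1.73% higher and 5.33% lower, and the median log2 fold change of these 2196 genes was -0.14. When the classes were set from the Ubn1_KD libraries, the 4 classes from low to high held 16.4%, 18.2%, 6.05% and 1.20% higher genes. Lower genes made up 2.27%, 6.88%, 5.57% and 5.58%. Ubn1_KD libraries took no part in this comparison, but the genes were still those with enough reads in Hira_KD or control libraries. A gene with few reads in Ubn1_KD and control could be tested only through its Hira_KD reads, which favours higher calls in the lowest class. CPM favours long transcripts, so classes were also set per kb of exon, and there the share of higher genes fell from 19.14% in the lowest class to 1.83% in the highest, while lower genes went from 3.72% to 8.04%. The genes called higher took up 1.90% of all CPM in control and 3.85% after depletion. The genes called lower took up 6.95% in control and 4.49% after depletion. Fewer genes thus fell, but these carried more of the RNA. Among protein-coding genes alone, 24.3% were higher from 1 to 10 CPM and 19.8% under 1 CPM. The part of level in the calls of the gene lists below was not tested. Their members, too, could be tested through reads in the Hira_KD libraries alone, which favours higher calls, or in controls alone, which favours lower calls.

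**Figure D1:**
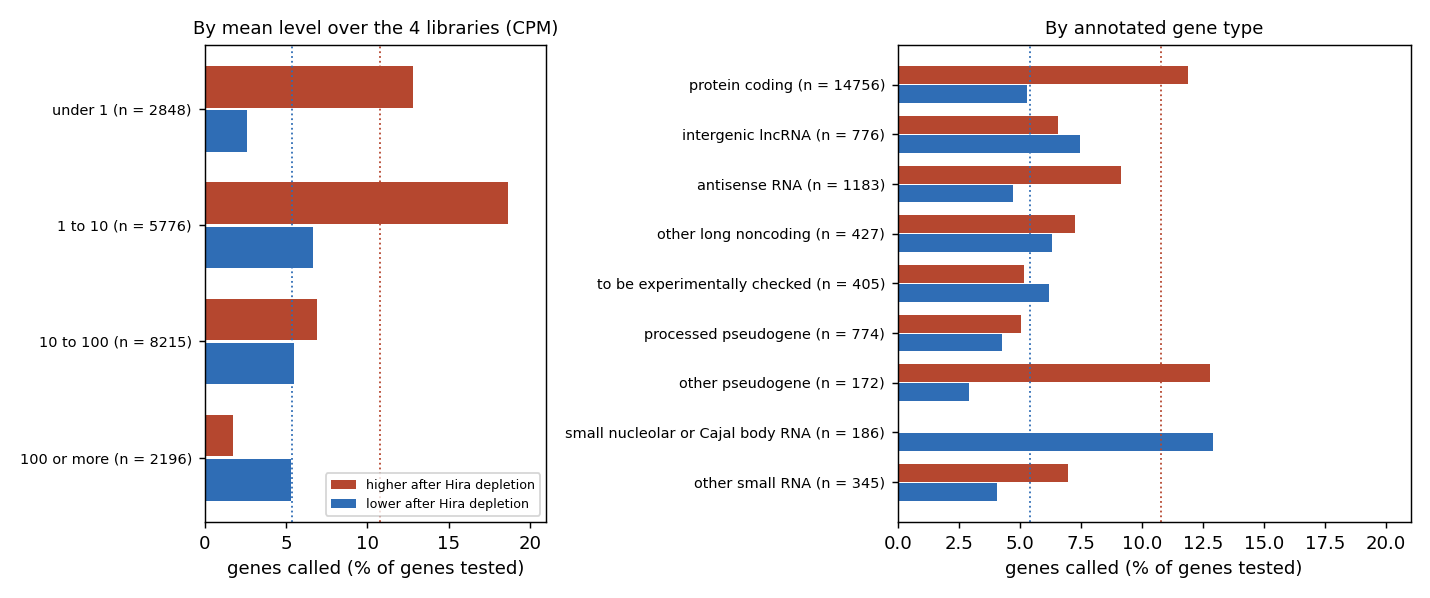
Share of tested genes called higher (red) or lower (blue) in Hira_KD against Control libraries, by mean level in CPM over the 4 libraries (left) and by annotated gene type (right), with the number of genes tested in brackets. Dotted lines mark the shares over all genes tested, 10.8% higher and 5.40% lower. Higher calls gather under 10 CPM, and small nucleolar RNAs have lower calls alone.

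Some genes went from almost no reads to a low level. At or under 3 counts in each control library and above 3 in each Hira_KD library were 69 genes, 43 of them protein coding. The reverse pattern was found for 6 genes. Both sets were chosen by these counts, so their direction is given by the choice. The median of the 69 was 0.529 CPM after depletion, so these transcripts stayed rare. Kcnq3, a neuronal potassium channel subunit, had 2 and 1 reads in the control libraries and 28 and 22 in the Hira_KD libraries. Foxl2, a forkhead factor of the ovary, had 2 and 0 reads against 24 and 14. Abcb5, a drug-efflux transporter, had 0 reads in either control and 23 and 18 after depletion, which makes it at least 6.66-fold higher when the controls are set at 3 counts per library.

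Among genes with a mean of at least 1 CPM, the 10 with the highest log2 fold changes held genes known from unrelated tissues, beside Gm37416, Gm42879, Gm9732 and the pseudogene Olfr839-ps1. Samd9l, an interferon-inducible growth inhibitor, had 0.743 and 0.637 CPM in control and 6.46 and 7.55 CPM after depletion (3.35 ± 0.29, adjusted p = 3.97e-08). Cpz, a carboxypeptidase of the extracellular matrix, had 0.941 and 0.924 against 10.02 and 8.45 CPM (3.31 ± 0.25). Matn1, a cartilage matrix protein, had 1.88 and 1.27 against 12.9 and 10.7 CPM (2.95 ± 0.23). In each case the 2 depleted libraries lay several-fold above the 2 controls. The neuropilin Nrp1, a receptor for semaphorins and VEGF, had a log2 fold change of 3.02 ± 0.48, the leukotriene receptor gene Ltb4r2 of 3.06 ± 0.32 and the neural bHLH factor gene Bhlhe23 of 3.01 ± 0.47. The largest gains in CPM were in the metallothionein gene Mt2, whose protein binds zinc and copper, and in the tubulin gene Tuba1a (302 and 316 against 512 and 589 CPM). Mt2 had 222 and 231 CPM in control and 781 and 650.2 CPM after depletion (1.66 ± 0.09). Its neighbour Mt1, named after its values were seen, had 164 and 172 against 441 and 365 CPM. The antisense gene Gm45774 overlaps Mt2, had nearly the same level and cannot be told apart from it here.

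Falls were smaller. Apart from Hira and Gm28539, the lowest log2 fold changes among genes above 1 CPM were those of Adhfe1 and G0s2. Adhfe1, a mitochondrial hydroxyacid-oxoacid transhydrogenase, had 4.06 and 4.37 against 1.07 and 0.855 CPM (-2.11 ± 0.30). G0s2, an inhibitor of fat breakdown, had 1.49 and 1.98 against 0.396 and 0.475 CPM (-2.01 ± 0.44). Pou2f3, a POU factor, fell from 24.3 and 31.1 to 7.86 and 8.93 CPM (-1.74 ± 0.15). Platr26, a long noncoding RNA named for its link with pluripotency, fell from 8.52 and 7.26 to 2.01 and 2.56 CPM (-1.8 ± 0.23). The largest losses in CPM were in the glycolytic genes Pkm, Eno1 and Pgk1, described with metabolism.

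**Figure D2:**
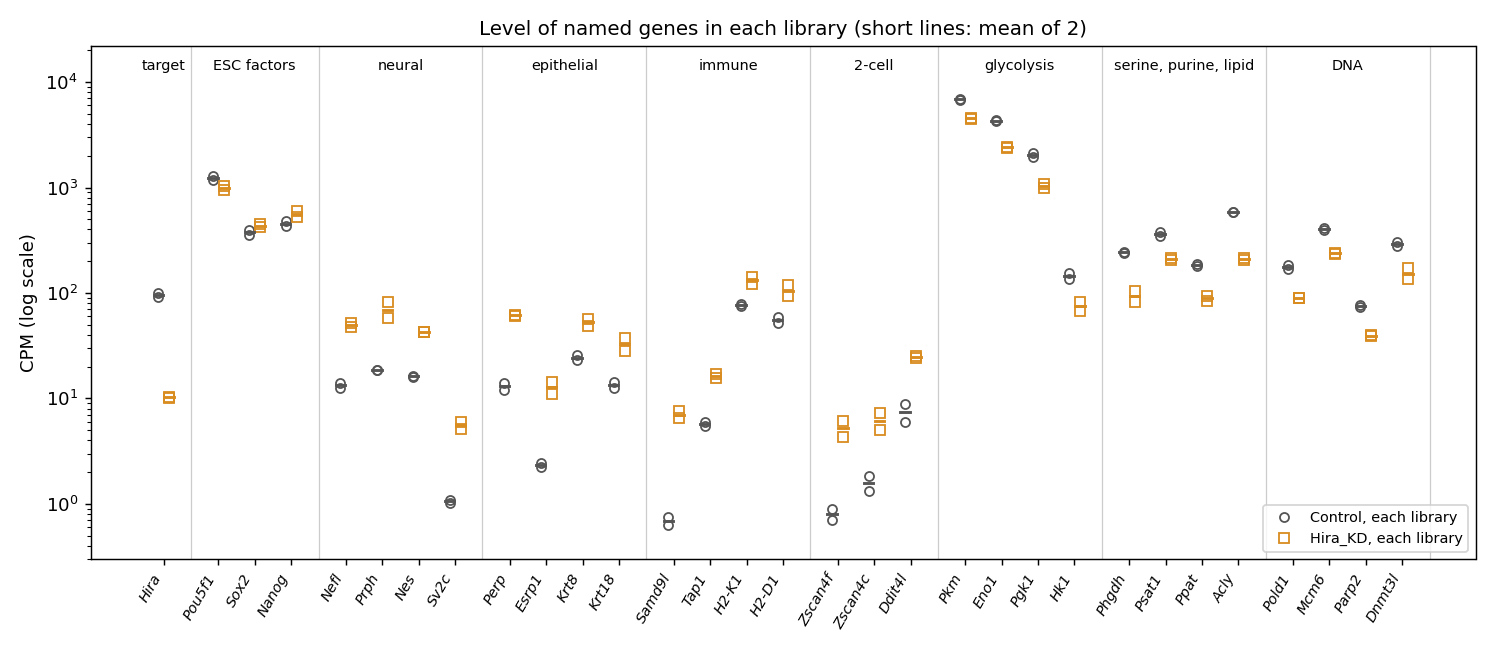
Level of 31 named genes in each Control (circles) and Hira_KD (squares) library, in CPM on a log axis, grouped by role, with short lines for the mean of 2 libraries. Pou5f1, Sox2 and Nanog shift little, and the plotted neural, epithelial, immune and 2-cell genes lie higher after Hira depletion. The plotted genes of glycolysis and of serine and purine synthesis, as well as Acly, Pold1, Mcm6, Parp2 and Dnmt3l, lie lower.

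Functions were read from 73 gene lists, and where a list had 0 calls in 1 direction by edgeR, DESeq2's Wald test also gave 0 there, except for 1 lower cytosolic ribosomal protein gene. Between 0 and 9 genes of such a list moved in that direction at an unadjusted p under 0.05, except for 76 lower cytosolic ribosomal protein genes. Where a list had 2 or fewer calls in a direction, leaving out 1 library moved that count by at most 2 genes, except for lower cytosolic ribosomal protein genes. Of 44 tested neural progenitor and neuronal genes, 18 were higher and 2 lower, with a median log2 fold change of 0.46 against 0.01 over all genes. The neurofilament genes Nefl, Nefm and Nefh, which build the axonal skeleton, were all higher. Nefl had 12.5 and 14.1 CPM in control and 51.6 and 47.9 CPM after depletion (1.9 ± 0.11), and Nefm had 9.95 and 11.2 against 36.05 and 35.7 CPM (1.76 ± 0.12). Prph, the intermediate filament of peripheral neurons, had 18.5 and 18.5 against 82.00 and 57.4 CPM (1.92 ± 0.13), and Nes, the nestin filament of neural progenitors, 16.1 and 16.3 against 42.8 and 42.3 CPM (1.39 ± 0.11). Other defining neural genes were at 0 reads in all 4 libraries, as for Dcx and Slc17a6, or at 3 or fewer, as for Neurog2, Neurod4, Nkx2-2 and Nkx6-1. The summed level of the 44 genes was 1265 and 1317 CPM in control and 1766 and 1840 CPM after depletion.

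Lists of nerve contacts and excitability also had mostly higher calls, with 24.6% to 34.4% of members higher. Among all protein-coding genes with a mean of 1 to 10 CPM, 24.3% were higher. The shares of these lists were near that value, apart from the 34.4% of calcium and sodium channels. Of 44 genes of synaptic adhesion and release, 11 were higher and 0 lower, among them Sv2c, a synaptic vesicle protein (1.09 and 1.02 against 5.09 and 6.03 CPM, 2.39 ± 0.28). Axon guidance genes gave 15 higher and 2 lower of 61, led by the semaphorin receptor Nrp2 (16.5 and 10.7 against 39.7 and 40.6 CPM). Calcium and sodium channel genes gave 11 higher and 1 lower of 32, transmitter receptors 14 and 4 of 54, and potassium channels 14 and 1 of 55. Of the transmitter receptors, 8 were higher under DESeq2's Wald test, and lower ones numbered 2 without Control replicate 2 and 1 without Hira_KD replicate 2. Gria3, a glutamate receptor subunit, had 1.19 and 1.34 against 5.55 and 4.89 CPM (2.04 ± 0.27), and the ATP-gated channel gene P2rx3 went the other way (-0.63 ± 0.10). For potassium channels, 8 were higher under DESeq2's Wald test and 9 without Hira_KD replicate 1. With at least 10 counts in every library, 7 of 42 potassium channels were higher. The T-type calcium channel gene Cacna1h went the other way (24.9 and 21.8 against 14.1 and 9.31 CPM, -0.97 ± 0.16).

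Calls among developmental regulators were mostly higher, from low levels. Hox genes, which pattern the body axis, gave 8 higher and 0 lower of 18, with a median log2 fold change of 0.99. Hoxa5 had 0.198 and 0.0637 against 1.4 and 0.760 CPM. The Hox count was 5 under DESeq2's Wald test, 5 without Control replicate 2, and 3 higher and 1 lower without Hira_KD replicate 1. Among the 8 Hox genes with at least 10 counts in every library, 3 were higher and the median was 0.46. With that filter, 7 of 34 other homeobox and Pax genes were higher. Other homeobox and Pax genes gave 16 higher and 2 lower of 52, and 7 higher under DESeq2's Wald test and 9 without Control replicate 1. In the retinoic acid pathway, whose ligand drives neural and posterior fates, 10 of 20 were higher and 1 lower, with 5 higher under DESeq2's Wald test and 6 without Control replicate 2 or without Hira_KD replicate 2. The receptor gene Rxra had 15.8 and 16.5 against 28.8 and 31.96 CPM (0.91 ± 0.12). Stra8, the retinoic acid target that opens meiosis, fell from 21.9 and 19.8 to 12.9 and 10.1 CPM (-0.84 ± 0.14). Of the forkhead, Sox, Gata, T-box and Klf genes, 12 were higher and 4 lower of 75, with 2 lower without Control replicate 2.

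Signalling lists had mostly higher calls, beside 66.6% of calls over all genes, apart from FGF and ERK feedback genes. Among Nodal, activin and BMP genes, 11 of 45 were higher and 1 lower. The number higher was 7 without Control replicate 1. The BMP target Id3 rose from 8.71 and 12.8 to 24.5 and 39.3 CPM (1.53 ± 0.18) and the TGF-beta receptor gene Tgfbr2 from 1.34 and 2.2 to 5.85 and 7.64 CPM (1.88 ± 0.27). Wnt genes gave 10 higher and 1 lower of 47, with the ligand Wnt5a at 0.594 and 0.733 against 3.23 and 2.18 CPM. FGF and ERK feedback genes gave 4 and 4 of 34. LIF and STAT3 genes gave 2 and 0 of 18 (11.1% higher). Notch genes gave 3 and 0 of 24 (12.5% higher), and 0 higher without Control replicate 1. The shares of these last 2 lists were near the 10.8% of all genes.

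Calls among epithelial and matrix genes were mostly higher. Of 31 genes of epithelial junctions and keratins, 8 were higher and 0 lower. Perp, a desmosome protein and p53 target, had 13.9 and 12.04 CPM in control and 62.1 and 60.9 CPM after depletion (2.25 ± 0.11, adjusted p = 9.87e-12). Esrp1, the epithelial splicing factor, had 2.23 and 2.45 against 14.3 and 11.1 CPM (2.44 ± 0.21). The paired keratins Krt8 and Krt18 had 25.6 and 22.97 against 56.9 and 48.3 CPM and 14.2 and 12.5 against 37.3 and 28.1 CPM. Trophoblast genes gave 9 higher and 1 lower of 22. Among them Esx1, a placental homeobox gene on the X chromosome, had 4.16 and 4.78 against 18.2 and 14.5 CPM (1.87 ± 0.18), while Prl3d1, Prl2c2 and Tpbpa, which mark differentiated placenta, had no read in any of the 4 libraries. Collagens gave 9 higher and 3 lower of 31, with 5 and 1 under DESeq2's Wald test. Serpinh1, the collagen chaperone HSP47, rose from 61.7 and 67.1 to 181 and 149 CPM (1.36 ± 0.09).

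Markers of cells that an ESC culture could also hold were checked over whole lists. Fibroblast and mesenchyme genes gave 8 higher and 1 lower of 16 tested, and their summed level was 1797 and 1827 CPM in control and 1859 and 1920 CPM after depletion. Vim, a filament gene that ESCs also express, rose from 199.9 and 232 to 383 and 409.8 CPM, while Dcn, Lum, Postn, Fap and Prrx1 had 0 reads in all 4 libraries. Blood and endothelial genes gave 6 higher and 1 lower of 16, with summed levels of 192 and 184 CPM against 218 and 210 CPM, and Fli1, Hba-x, Hbb-bh1, Hbb-bs and Hbb-bt had no read. Muscle and heart genes gave 3 and 3 of 19, with summed levels of 165 and 173 CPM against 151 and 153 CPM. Primitive endoderm genes gave 3 higher and 1 lower of 22, 1 higher under DESeq2's Wald test, 1 higher without Control replicate 1 or without Hira_KD replicate 1, and the lower one was Hnf4a (8.32 and 9.49 against 3.78 and 3.37 CPM, -1.31 ± 0.20). Afp had no read. The part of other cell types in these values was not tested.

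Genes of the 2-cell embryo, which flicker on in a small fraction of ESCs, gave 16 higher and 0 lower of 19 tested, with a median log2 fold change of 1.97. Their summed level was 225.5 and 190.5 CPM in control and 258 and 238 CPM after depletion, and most of it came from Eif1a, which was not called (201 and 171 against 169 and 166 CPM). Zscan4f had 0.891 and 0.701 CPM in control and 6.12 and 4.27 CPM after depletion (2.74 ± 0.31), Zscan4c 1.83 and 1.34 against 7.31 and 4.99 CPM and Ddit4l 6.04 and 8.76 against 24.99 and 24.03 CPM (1.7 ± 0.16). The 39 listed genes in the table included 8 with 3 or fewer reads in each of the 4 libraries, Zfp352 among them. With a filter of 10 counts in every library, 10 of 12 were higher. Zscan4 genes are near-identical copies, so the share of reads given to each is uncertain.

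In antigen presentation, which displays peptides at the cell surface, 16 of 26 genes were higher and 0 lower, with a median log2 fold change of 0.86. The class I heavy chain genes H2-K1 and H2-D1 had 77.8 and 75.1 against 141 and 122 CPM and 58.96 and 51.7 against 118 and 92.7 CPM. Tap1, which pumps the peptides into the endoplasmic reticulum, had 5.5 and 5.96 against 15.8 and 17.1 CPM (1.51 ± 0.16, adjusted p = 4.32e-07). All depleted libraries lay above all controls for these genes, but groups did not overlap for 67.2% of all genes tested. Class I genes are similar enough in sequence that reads can be shared between them. Interferon response genes gave 10 higher and 1 lower of 40. Beside Samd9l, the higher ones included Parp9 and Parp12 (0.78 ± 0.13 and 0.74 ± 0.12), and the lower one was Ifitm1, a membrane protein against viral entry that ESCs express at rest (157 and 175 against 97.99 and 93.02 CPM, -0.8 ± 0.08).

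Stress pathways split. Targets of p53 gave 8 higher and 2 lower of 34, with Plk2 (1.02 ± 0.09), Phlda3 (0.97 ± 0.09) and Mdm2 (0.6 ± 0.08), which restrains p53, among the higher. Mdm2 lay under the fold threshold without Control replicate 1 and without Hira_KD replicate 1, at 0.58 and 0.53. Scaled by total counts, 13 were higher. In the NRF2 and antioxidant list, 5 of 29 were higher and 1 lower. Srxn1 had 42.03 and 43.9 against 90.6 and 93.02 CPM (1.09 ± 0.08), while the heme-degrading Hmox1 fell (-0.59 ± 0.08), a change under the fold threshold without Control replicate 1 or without Hira_KD replicate 1. Heat shock genes gave 4 higher and 1 lower of 16. The small chaperone Hspb8 rose (1.14 ± 0.12) and the mitochondrial chaperonin Hspe1 fell from 424 and 426 to 283 and 265 CPM (-0.63 ± 0.07). In the unfolded protein response, 1 of 25 was lower, and 0 were higher by edgeR or DESeq2, with 9 higher at an unadjusted p under 0.05 and no fold threshold. Genes of ATF4 and amino acid stress gave 10 lower and 3 higher of 34, with a median log2 fold change of -0.41. Phgdh, the first enzyme of serine synthesis, fell from 240.2 and 245 to 104 and 82.96 CPM (-1.37 ± 0.09, adjusted p = 1.28e-09), and Psat1, the next enzyme, from 348 and 377 to 214 and 205 CPM (-0.79 ± 0.08).

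In the remaining lists of cell state, development and matrix, calls were also mostly higher. Primed and formative epiblast genes gave 6 higher and 1 lower of 21, with Zic2, a zinc finger factor of the early neural plate, at 17.4 and 25.4 against 34.01 and 47.7 CPM. Primitive streak and mesoderm genes gave 5 and 1 of 16, or 3 higher without Control replicate 2, with Kdr, the VEGF receptor, at 1.39 and 1.37 against 3.81 and 4.75 CPM. Glial genes gave 3 and 1 of 14, or 1 higher without Control replicate 2. Factors of the bHLH family gave 9 and 3 of 38, or 1 lower without Control replicate 1 or without Hira_KD replicate 2, and hedgehog genes 3 and 0 of 14. Laminins and basement membrane gave 6 higher and 1 lower of 23, with 2 higher without Control replicate 2 and 3 without Hira_KD replicate 2. Integrins gave 4 and 0 of 21, with 2 higher without Control replicate 1 or without Hira_KD replicate 2. Matrix proteases and their inhibitors gave 11 and 1 of 37, or 7 higher without Control replicate 2, and the lower one was the inhibitor gene Timp1 (-0.92 ± 0.13). Targets of YAP and SRF gave 7 and 1 of 30, or 4 higher without Hira_KD replicate 1, and the lower one was Wwtr1, which encodes the YAP partner TAZ (62.97 and 66.5 against 33.8 and 36.9 CPM, -0.88 ± 0.09).

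Transport and detoxification genes were among the larger families. Solute carriers gave 43 higher and 11 lower of 249. Slc4a11, a member of the bicarbonate transporter family, had 20.9 and 19.8 against 53.6 and 50.5 CPM (1.36 ± 0.10), while Slc11a1, a metal ion transporter of phagosomes, had 58.9 and 68.9 against 25.4 and 27.02 CPM (-1.29 ± 0.10). ABC transporters gave 6 and 3 of 36, or 1 lower without Control replicate 1. Glutathione transferases and cytochromes P450 gave 14 and 1 of 46, with 8 higher without Control replicate 2 and 9 without Hira_KD replicate 1. Gsto1 had 22.8 and 21.9 against 50.6 and 45.2 CPM (1.1 ± 0.10). Aldehyde and alcohol oxidoreductases gave 5 higher and 6 lower of 40. Cell death genes gave 6 and 3 of 33, with the inhibitors of apoptosis Birc2 (-0.72 ± 0.09) and Xiap (-0.64 ± 0.09, under the fold threshold without Hira_KD replicate 1) among the lower. Regulators of G1 gave 3 and 1 of 18, or 6 higher without Control replicate 2 or with total counts, with Rb1, the retinoblastoma gene, at 15.6 and 16.3 against 32.3 and 29.1 CPM and its relative Rbl1 at 27.9 and 27.5 against 12.9 and 12.3 CPM. Autophagy and lysosome genes gave 2 and 1 of 40, the proteasome 1 and 1 of 38, telomere genes 1 and 3 of 26 (1 lower without Hira_KD replicate 1 and 0 by edgeR with total counts), MYC partners 3 and 0 of 11, and histone variants outside the clusters 1 and 0 of 11.

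**Figure D3:**
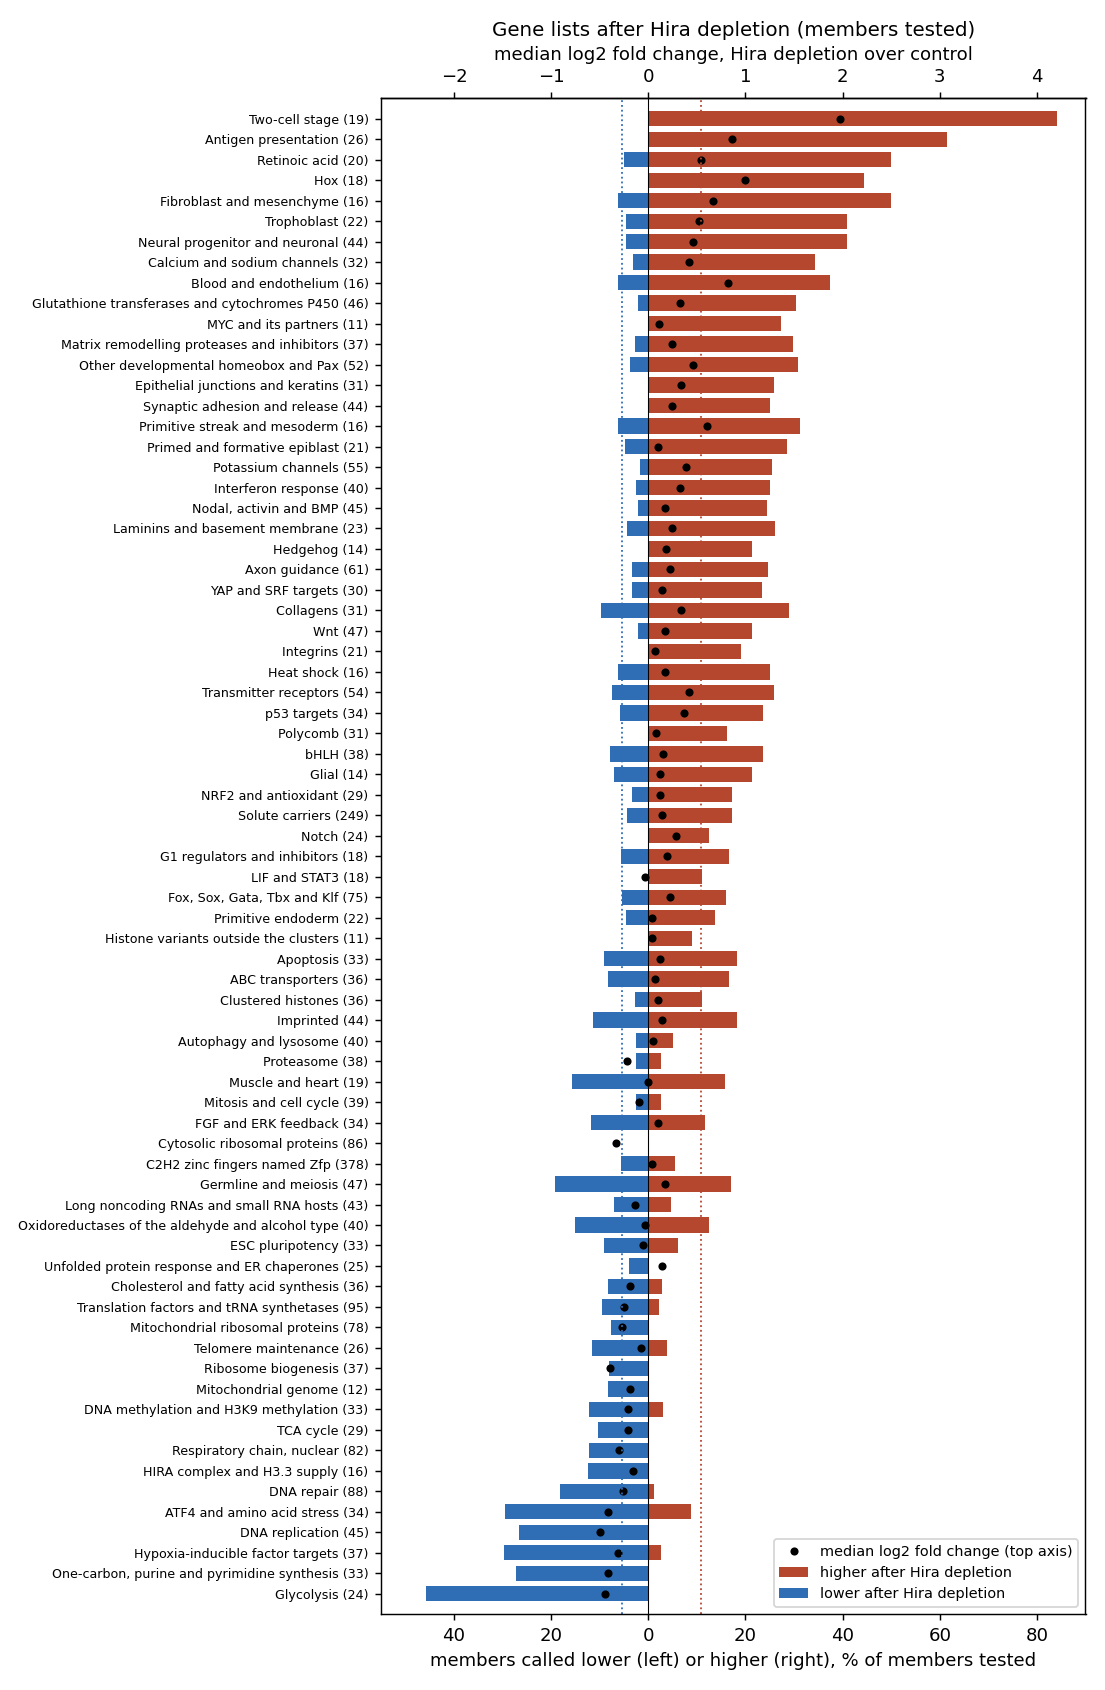
Share of the tested members of each of 73 gene lists that were called higher (red, to the right) or lower (blue, to the left) after Hira depletion, with the number tested in brackets and the median log2 fold change as a black dot on the top axis. Dotted lines mark the shares over all genes, 10.8% and 5.40%. The 2-cell list stands at the top with 16 of 19 higher and glycolysis at the foot with 11 of 24 lower.

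In energy metabolism, calls were lower and fell on genes of high level. Of 24 glycolysis genes, 11 were lower and 0 higher, and 22 had a negative log2 fold change, with a median of -0.45. Summed over the list, the level went from 35150 and 36330 CPM in control to 25050 and 24800 CPM after depletion. Pkm, which makes pyruvate, fell from 6795 and 6976 to 4478 and 4556 CPM (-0.61 ± 0.07), or -0.48 with total counts. Eno1, the enolase, fell from 4250.0 and 4342 to 2427 and 2378 CPM (-0.84 ± 0.07), and Pgk1, phosphoglycerate kinase, from 2129 and 1957 to 1091 and 988 CPM (-0.97 ± 0.08, adjusted p = 1.37e-08). The annotated copy Eno1b changed by the same amount as Eno1 and may hold its reads. Under scaling by total counts 6 glycolysis genes remained called and the median was -0.33. Hypoxia-inducible factor targets, which respond to low oxygen, gave 11 lower and 1 higher of 37, with Bnip3, a receptor for mitophagy, at 184 and 211 against 91.7 and 93.7 CPM (-1.1 ± 0.08). With total counts 5 were lower.

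Calls in other synthesis pathways were mostly lower as well. Acly, which turns citrate into acetyl-CoA, had 587 and 591 CPM in control and 204 and 217 CPM after depletion (-1.49 ± 0.08, adjusted p = 2.41e-11), a larger change than in any of the 24 glycolysis genes. Its level after Ubn2 depletion differed from control by -0.17 and after Ubn1 depletion by 0.07 on the log2 scale. One-carbon, purine and pyrimidine synthesis gave 9 lower and 0 higher of 33. Its first committed purine enzyme gene, Ppat, fell from 188 and 181 to 84.2 and 94.1 CPM (-1.05 ± 0.08), followed by Pfas (-0.88 ± 0.08) and Paics (-0.81 ± 0.07). The TCA cycle list gave 3 lower, Acly among them, and 0 higher of 29. Of 82 nuclear respiratory chain genes, 10 were lower and 0 higher, although 76 had a negative log2 fold change. Sdha, a subunit of complex II, fell from 269 and 266 to 167 and 168 CPM (-0.67 ± 0.07). With total counts, the number of lower genes was 5 for one-carbon and nucleotide synthesis and 6 for the respiratory chain. Cholesterol and fatty acid synthesis gave 3 lower and 1 higher of 36. Of 12 genes of the mitochondrial genome, 1 was lower, mt-Nd5, a subunit of complex I (1283 and 1032 against 670.4 and 823 CPM, -0.63 ± 0.10), with 0 without Control replicate 1 or without Hira_KD replicate 1 and 2 without either of the other libraries or by DESeq2.

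Of 86 cytosolic ribosomal protein genes, 84 had a negative log2 fold change, with a median of -0.33, but 0 were called in either direction by edgeR. At an unadjusted p under 0.05 and with no fold threshold 76 were lower and 1 higher, DESeq2's Wald test called 1 lower, and edgeR called 4 lower without Hira_KD replicate 1. Rpsa, the one with the highest CPM, had 3126 and 2877 CPM in control and 2665 and 2519 CPM after depletion (-0.21 ± 0.07, adjusted p = 0.0325), and Rplp0 3039 and 2843 against 2514 and 2402 CPM (adjusted p = 0.00943). The median was -0.21 with total counts. Ribosome biogenesis genes gave 3 lower and 0 higher of 37, with 34 of 37 negative (1 lower without Hira_KD replicate 1, 6 without Control replicate 2 and 5 without Hira_KD replicate 2), mitochondrial ribosomal proteins 6 and 0 of 78, and translation factors and tRNA synthetases 9 lower and 2 higher of 95. Eif2s3x, a subunit of the initiation factor eIF2, fell from 241 and 228 to 119 and 123 CPM (-0.95 ± 0.08). Mycn, a MYC family gene, went the other way (107 and 137 against 184 and 212 CPM, 0.69 ± 0.10), and lay under the fold threshold without Control replicate 1 or without Hira_KD replicate 2.

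Calls among genes that copy and mend DNA were lower, with a single exception on the TMM scale. Of 45 DNA replication genes, 12 were lower and 0 higher, and 44 had a negative log2 fold change, with a median of -0.50. Pold1, the catalytic subunit of polymerase delta, fell from 169.8 and 183 to 89.98 and 88.7 CPM (-0.98 ± 0.08, adjusted p = 9.87e-09). The helicase subunit Mcm6 fell from 412 and 396 to 239.8 and 236 CPM (-0.76 ± 0.07) and the loader Cdc6 from 97.3 and 90.2 to 49.8 and 52.1 CPM (-0.88 ± 0.08). DNA repair genes gave 16 lower and 1 higher of 88, the higher one being the nuclease gene Ercc4. The lower ones included Parp2, a sensor of strand breaks (-0.93 ± 0.09), the mismatch repair gene Mlh3 (-1.02 ± 0.10) and the checkpoint kinase gene Chek2 (-0.95 ± 0.09). Scaled by total counts 8 replication and 10 repair genes were lower, and 4 repair genes were higher. Genes of mitosis and the cell cycle gave 1 higher and 1 lower of 39.

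Chromatin genes were mixed. Among DNA and H3K9 methylation genes, 4 of 33 were lower and 1 higher. Dnmt3l, the cofactor of de novo DNA methylation, fell from 279 and 306 to 134 and 171 CPM (-0.94 ± 0.09), Uhrf1, which guides maintenance methylation, from 544 and 546 to 321 and 366 CPM (-0.67 ± 0.08), and Zfp57, which protects imprints, from 484 and 504 to 294 and 351 CPM (-0.62 ± 0.08). With total counts 1 of the 33 was lower, and without Hira_KD replicate 1 there were 2, with Uhrf1, Zfp57 and Tet1 under the fold threshold. Polycomb genes gave 5 higher and 0 lower of 31, or 2 higher without Hira_KD replicate 1. Of 36 clustered histone genes, 4 were higher and 1 lower, in libraries made with an mRNA kit, and 2 were higher without Hira_KD replicate 1. Imprinted genes gave 8 higher and 5 lower of 44, or 13 and 1 with total counts, with the growth inhibitor Grb10 at 14.01 and 16.7 against 48.9 and 38.4 CPM (1.5 ± 0.13). Germline and meiosis genes split, with 8 higher and 9 lower of 47, and 4 higher without Hira_KD replicate 1. Meioc, a regulator of meiotic entry, fell from 56.3 and 56.2 to 21.4 and 18.1 CPM (-1.5 ± 0.10), whereas Tex19.1 rose from 53.8 and 45.2 to 85.1 and 90.7 CPM (0.83 ± 0.09). Zinc finger genes named Zfp gave 21 higher and 21 lower of 378, below the background of 10.8% for higher genes and near that of 5.40% for lower genes, or 38 and 12 with total counts.

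Gene types differed in their balance. Protein-coding genes gave 1752 higher and 782 lower of 14756. Intergenic long noncoding RNAs gave 51 and 58 of 776, and processed pseudogenes 39 and 33 of 774. Antisense RNAs gave 108 higher and 56 lower of 1183. No strand-marking step is described for these libraries, so an antisense RNA cannot be told apart from an overlapping coding gene. Of the 108 higher antisense RNAs, 102 overlapped a coding gene, and for 77 of these the coding gene was higher too. Of the 56 lower ones, 55 overlapped a coding gene, which was also lower for 28. In a list of 43 tested long noncoding RNAs and small RNA hosts, 2 were higher and 3 lower, or 6 lower without Control replicate 2 and 7 without Hira_KD replicate 1. Neat1, the scaffold RNA of paraspeckles, rose from 221 and 210.0 to 487 and 349 CPM (0.96 ± 0.11), and the other higher one was Tsix, the antisense partner of Xist, which was under the fold threshold without Control replicate 1 or without Hira_KD replicate 2. The imprinted RNA Meg3 had 339 and 315 against 373 and 373 CPM and H19 34.3 and 32.4 against 47.9 and 44.3 CPM, neither of them called and both named after their values were seen.

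Small nucleolar and Cajal body RNAs were the type with calls in 1 direction alone. They guide chemical marks on ribosomal and spliceosomal RNA, and most are cut from introns of host genes. Of 186 tested, 24 were lower (12.9%, beside 5.40% of all genes) and 0 higher, also by DESeq2 and at an unadjusted p under 0.05 among the 182 with coordinates, and the median log2 fold change was -0.41. A host gene that was itself tested contained 179 of them. All 24 lower RNAs had a host, and 0 of these 19 host genes were called by edgeR in either direction, while DESeq2's Wald test called 1 lower and 13 were lower at an unadjusted p under 0.05. The median log2 fold change was -0.83 for the 24 RNAs and -0.30 for their hosts, and of the 179 pairs 125 had the small RNA below its host. Sequences of 4 of the 24, from the GENCODE M21 transcripts of GRCm38, are shown to make clear how short the counted features are. Capitals mark TGATGA in the first part and CTGA in the last part, the letters of boxes C and D that bind the core proteins, or the ACA near the 3′ end.
Snord12: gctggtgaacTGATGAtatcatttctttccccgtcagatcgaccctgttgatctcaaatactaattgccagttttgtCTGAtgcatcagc
Snord99: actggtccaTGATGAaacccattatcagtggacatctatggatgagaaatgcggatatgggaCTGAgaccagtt
Snord96a: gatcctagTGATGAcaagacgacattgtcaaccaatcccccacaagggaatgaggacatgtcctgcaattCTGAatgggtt
Snora61: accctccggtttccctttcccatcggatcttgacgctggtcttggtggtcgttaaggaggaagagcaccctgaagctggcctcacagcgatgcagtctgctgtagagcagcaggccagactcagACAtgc
Snord12 lies at chr2:167065276-167065365 on the plus strand within Zfas1, Snord99 at chr4:132310691-132310764 on the plus strand within Snhg12, Snora61 at chr4:132310240-132310369 on the plus strand within the same host, and Snord96a at chr11:48802032-48802112 on the plus strand within Rack1. TGATGA and CTGA, searched on the RNA strand, occurred in this order in 10 of the 24 (41.7%) and in 73 of the 182 tested RNAs with a sequence (40.1%), which are nearly equal shares. Snord96a had 516 and 701 reads in the control libraries and 449 and 305 in the Hira_KD libraries, with a log2 fold change of -0.76 ± 0.13, beside -0.31 for Rack1. Snord12 had 143 and 206 reads against 137 and 85 (-0.73 ± 0.21), while its host Zfas1 had a log2 fold change of 0.23. Reads on such a feature cannot be told apart from reads of an unspliced host.

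**Figure D4:**
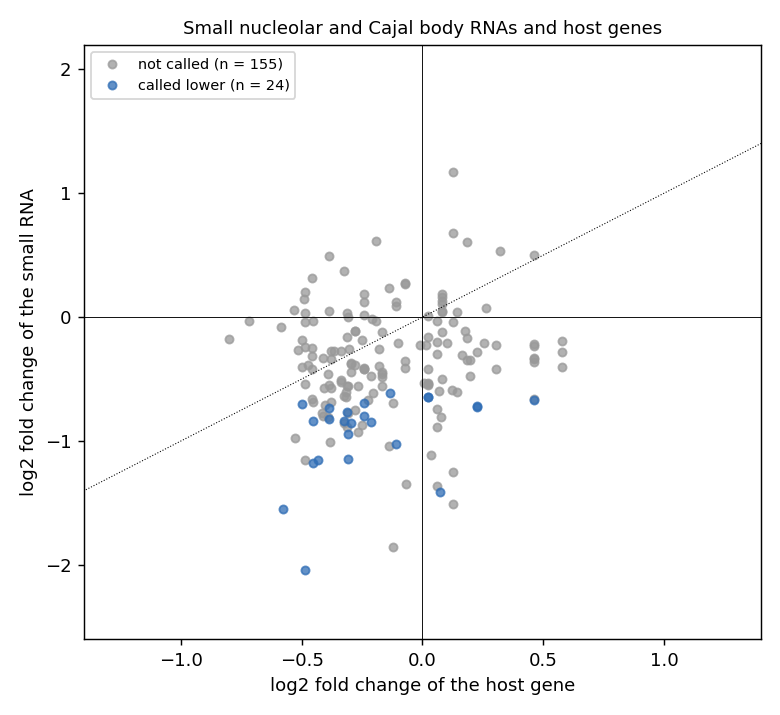
Log2 fold change after Hira depletion of 179 small nucleolar and Cajal body RNAs (vertical axis) against that of the host gene that contains each (horizontal axis), in blue where the small RNA was called lower. The dotted line marks equal change. The 24 called RNAs lie below 0 and below the line, also where the host changed upward.

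Other small RNA loci gave 24 higher and 14 lower of 345. Of these, 22 of the higher lay in a tested host gene, which was higher for 14, and 12 of the lower lay in one, which was lower for 10. Annotated pieces of Neat1 (Gm27533, Gm28006 and Gm27505) and the locus Mir5114 within Scd2, a desaturase gene that fell from 598 and 614 to 345 and 362 CPM, were of this kind. These values describe reads over the loci and not mature miRNAs, which are too short for such a library.

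Gene position and length were compared next. Among chromosomes, the highest share of higher genes was on 18, with 75 of 490 (15.3%). Clustered protocadherins, adhesion proteins that give neurons their identity, supplied 24 of those from 38 tested, with 0 lower, and without them the share was 11.3%. Gene models of the gamma cluster overlap, so reads can be shared between them and these calls may not be separate. On the X chromosome 9.67% of 600 genes were higher and 7.67% lower. When a protein-coding gene was higher, the next tested protein-coding gene along the chromosome was higher in 18.5% of 1748 cases, beside 11.9% of all protein-coding genes. For lower genes the shares were 9.74% of 780 and 5.30%. Without the protocadherins the share for higher genes was 17.6%. Other overlapping or related neighbours, which can share reads, were not removed. When protein-coding genes were put in 4 equal classes by the length of the gene from start to end, the longest class had 15.2% higher and 4.02% lower, and the other classes had between 9.99% and 12.2% higher.

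The CpG content of promoters was described next, a feature that separates broadly used genes from tissue-restricted ones. RefSeq promoters of GRCm38.p6, from 250 bases before to 50 bases after the start, were matched by symbol. A single window was found for 9064 of the 14756 coding genes (61.4%), which is too few for a check of the whole set, so the values describe those 9064. With 0 to 5 CpG in the window, 19.5% of 889 genes were higher and 6.19% lower. With 26 or more, 9.69% of 2962 were higher and 4.56% lower. The first class also had the lower expression, with a median of 2.57 CPM against 38.2 CPM, and the part of level in this difference was not tested. To show the contrast, the 120 bases before the start are given for the strongest rises in the poorest class and the strongest falls in the richest class above 1 CPM, Hira left out, with CG in capitals.
Samd9l: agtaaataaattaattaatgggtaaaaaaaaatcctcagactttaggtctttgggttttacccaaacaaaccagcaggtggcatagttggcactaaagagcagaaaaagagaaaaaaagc
Zscan4f: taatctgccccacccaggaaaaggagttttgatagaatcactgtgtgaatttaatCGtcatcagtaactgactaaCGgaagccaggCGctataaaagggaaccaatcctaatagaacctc
Dmrtc2: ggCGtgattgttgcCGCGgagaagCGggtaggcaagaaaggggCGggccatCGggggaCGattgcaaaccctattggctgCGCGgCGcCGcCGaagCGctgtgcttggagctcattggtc
Pfn4: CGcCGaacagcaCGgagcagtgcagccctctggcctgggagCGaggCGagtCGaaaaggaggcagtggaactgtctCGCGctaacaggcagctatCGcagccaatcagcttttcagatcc
The stretches lie at chr6:3399572-3399691 (minus strand), chr7:11397795-11397914, chr7:24869937-24870056 and chr12:4769175-4769294 (plus strand) of GRCm38.p6. They hold 0, 3, 13 and 9 CG. Dmrtc2, a gene of the germline, had 2.92 and 4.27 CPM in control and 1.49 and 0.855 CPM after depletion (-1.58 ± 0.33), and Pfn4, a testis profilin, 4.75 and 3.38 against 1.34 and 1.43 CPM (-1.54 ± 0.30). TATAAA, searched on both strands, occurred in 10.7% of the windows of higher genes, 6.02% of those of lower genes and 7.01% of all. ACGTG or GCGTG, the core letters of hypoxia response elements, occurred in 52.5%, 67.0% and 62.5%. Both are short matches that vary with base composition.

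The response to Hira depletion was also set directly against the depletion of its partners, without the shared controls. Against Ubn2_KD, 2222 of 18563 genes were higher in Hira_KD (12.0%) and 1042 lower (5.61%). Against Ubn1_KD, 1791 of 18819 were higher (9.52%) and 595 lower (3.16%). Of the neural progenitor and neuronal list, 22 of 43 were higher than after Ubn2 depletion and 17 of 43 higher than after Ubn1 depletion, with 2 lower in each. Nefl differed by 2.76 from Ubn2_KD (adjusted p = 1.35e-09) and by 2.30 from Ubn1_KD (adjusted p = 9.82e-13) on the log2 scale. Sv2c differed by 3.90 from Ubn2_KD (adjusted p = 3.43e-05). Epithelial genes gave 15 higher and 2 lower of 31 in each comparison, with Esrp1 at 2.35 and 3.73. Antigen presentation gave 11 and 15 higher of 26, and 0 lower in each.

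Of the hypoxia-inducible factor targets, 14 of 37 were higher in Hira_KD than in Ubn2_KD and 1 was lower. For glycolysis 6 of 24 were higher than in Ubn2_KD and 1 lower. Pgk1 differed from Ubn2_KD by 0.56 (adjusted p = 0.000239) and from Ubn1_KD by -0.38 (adjusted p = 0.0147). Set beside the same control libraries, Pgk1 differed by -0.97 in Hira_KD, -1.51 in Ubn2_KD and -0.57 in Ubn1_KD. Acly differed by -1.29 from Ubn2_KD (adjusted p = 6.55e-08) and by -1.54 from Ubn1_KD (adjusted p = 5.51e-11). DNA replication genes were lower than in Ubn1_KD for 11 of 45 and lower than in Ubn2_KD for 1, with 0 higher in each. Pold1 differed by -0.69 from Ubn2_KD (adjusted p = 6.38e-06) and by -0.92 from Ubn1_KD (adjusted p = 3.75e-07).

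Of 39 clustered histone genes 20 were lower in Hira_KD than in Ubn2_KD and 1 higher, and of 28 muscle and heart genes 19 were lower and 2 higher. Members that had enough reads here but not between Hira_KD and control entered through their reads in Ubn2_KD libraries, a choice that favours lower values in Hira_KD. Of the members tested in both, 17 of 31 histone genes and 10 of 19 muscle and heart genes were lower in Hira_KD than in Ubn2_KD, and 1 and 2 were higher. Against control, Hira_KD gave 4 higher and 1 lower, and 3 higher and 3 lower, in these lists. Of 22 tested 2-cell genes 4 were lower than in Ubn2_KD and 0 higher, or 3 and 0 of the 18 also tested against control. Against Ubn1_KD, 5 of 20 were higher and 0 lower, or 5 and 0 of the 18 also tested against control. Mt2 differed by 1.69 from Ubn2_KD (adjusted p = 3.42e-08) and by 0.97 from Ubn1_KD (adjusted p = 4.25e-07), and Mt1 by 1.61 and 0.69.

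**Figure D5:**
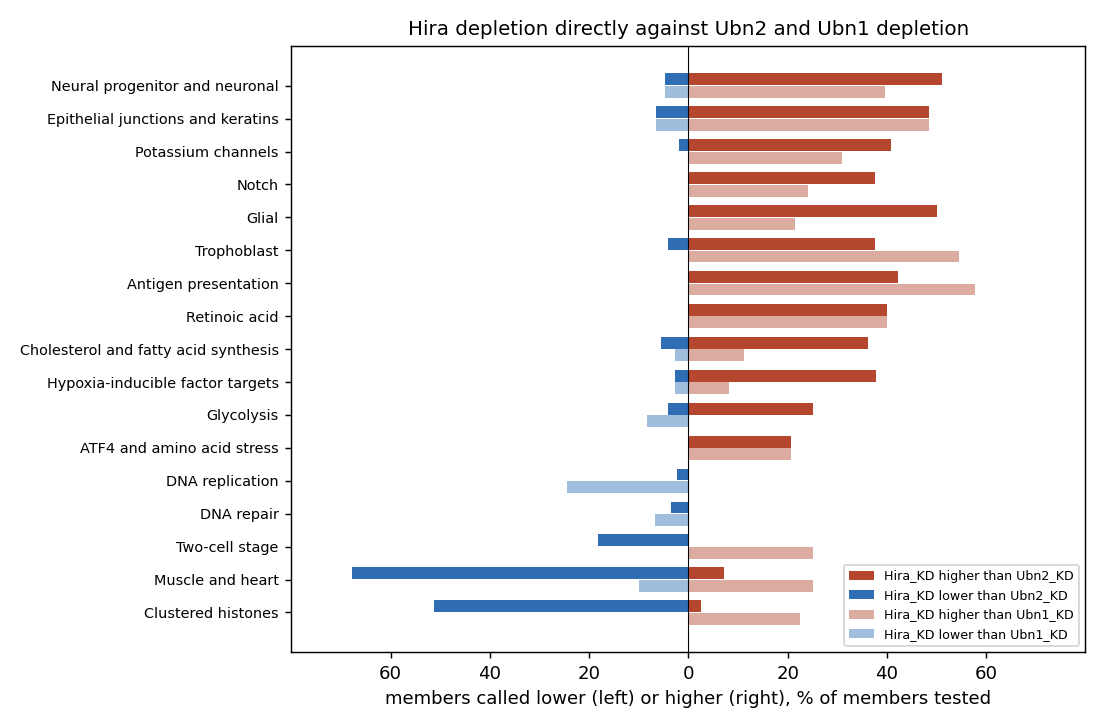
Share of the tested members of 17 gene lists that were called higher (red, to the right) or lower (blue, to the left) in Hira_KD than in Ubn2_KD (full colour) or Ubn1_KD (pale). Over all genes 12.0% were higher and 5.61% lower against Ubn2_KD, and 9.52% and 3.16% against Ubn1_KD. Neural and epithelial lists lie to the right in both comparisons, and clustered histone and muscle lists lie to the left against Ubn2_KD.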

How the data were processed

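RNA-seq libraries of E14 ESCs were compared, 2 of Control and 2 of Hira_KD, with the 2 libraries each of Ubn1_KD and Ubn2_KD for direct comparison. Per the labels and the study's methods, the authors used Trim Galore for trimming, STAR for alignment to GRCm38 and featureCounts for counting by gene. They deposited raw counts. Versions, the strand setting and the handling of multi-mapped reads are not given in the sources used here, and each could shift counts of overlapping or near-identical genes.

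Counts were analysed with edgeR 4.0.16 in R 4.3.3 (filterByExpr, TMM, quasi-likelihood test, Benjamini-Hochberg adjustment). Calls needed a fold over 1.5 and an adjusted p under 0.05. The standard error is the log2 fold change divided by the square root of F. DESeq2 1.42.0 was an alternative. The code was tested on simulated data. Symbols were matched to GENCODE M21 on GRCm38 (55303 to a single gene). Promoters came from RefSeq. Named genes were Hira and its partners, 3 ESC factors, the 10 highest and 10 lowest log2 fold changes (5 each for noncoding genes) above 1 CPM, up to 4 called genes of each list by adjusted p (2 most abundant where none was called), and the 3 most abundant called genes and 3 largest CPM differences each way. Some genes that this rule names are not reported here. Genes at no reads to few reads and those of the promoter display were chosen after their values were seen. The members, lists and rules were chosen with earlier results of these data known. Scaling by total counts and classes per kb were added after seeing the data.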

Additional observations from a re-analysis of the deposited data

How the results depend on the processing

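Without the fold threshold, 3357 genes were higher and 3287 lower in Hira_KD than in control, 3455 higher and 3186 lower than in Ubn2_KD, and 1917 lower than in Ubn1_KD. Scaled by total counts, 576 genes were lower than in control. DESeq2's Wald test gave 1073 genes higher than in Ubn1_KD, and 1380 higher and 834 lower than in control. Leaving out each library in turn gave 1704 to 1885 higher and 920 to 1103 lower against control. Of 280 named genes, 24 were no longer past the threshold and 1 newly passed it with total counts, 10 were lost with DESeq2, and between 17 and 27 were lost when a library was left out. No named call changed sign under these alternatives. With total counts the median log2 fold change turned positive for the lists of ESC pluripotency (0.07), oxidoreductases (0.09), telomere maintenance (0.05), mitosis and cell cycle (0.03), and LIF and STAT3 (0.09). With total counts the higher genes of the FGF and ERK list numbered 7 and those of the Notch list 5, and lower genes numbered 6 among solute carriers, 3 among oxidoreductases, 2 each among mitochondrial ribosomal proteins and forkhead, Sox, Gata, T-box and Klf genes, 1 each among cell death, ABC transporter and ribosome biogenesis genes, and 0 among transmitter receptors by edgeR. DESeq2 gave 3 higher in the primitive streak list, 2 in the laminin list and 1 in the muscle list. With at least 10 counts required in every library, fewer members were tested, and higher genes numbered 10 of 12 in the 2-cell list, 3 of 8 Hox genes, 7 of 42 potassium channels, 7 of 34 other homeobox genes, 9 of 37 glutathione transferases and P450s, 6 of 15 in the retinoic acid list and 6 of 41 in the Wnt list. In a fit with a replicate block, 2191 genes were higher and 1101 lower, of which 2028 and 1015 were also called without the replicate block, and no named call changed. Deviations of same-numbered Control and Hira_KD libraries correlated at r = 0.12 across 17012 genes. With 2 pairs and no statement in the labels, pairing was not established. Depth limits the genes under 1 CPM, where a few reads decide the fold.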
